A study of Homo sapiens with 4 samples.

Results

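The genes that make, pack, recapture and break down serotonin and the catecholamines were followed through human enteric ganglioids. They are the 10 rows with the symbols TPH1, TPH2, SLC6A4, TH, DBH, SLC18A2, DDC, SLC6A2, MAOA and MAOB, out of 36601 features in each table. They were chosen by symbol, with earlier results of these data known. Enteric ganglioids are 3D clusters of neural crest-derived enteric neurons and their precursors, grown here from human embryonic stem cells of the established line H9, so each group is a model from 1 line. Nuclei of 4 samples were sequenced by droplet RNA sequencing (snRNA-seq), with 2 replicates per group. The study's methods speak of biological replicates. Whether these are separate differentiations is not stated. It is also not stated whether the control and PP121 samples of one replicate number came from the same differentiation. Both controls (control 1 and control 2) were cultured without the compound, and both treated samples (PP121 1 and PP121 2) received 2 µM PP121, an inhibitor of several tyrosine kinases, between days 15 and 20 of differentiation. The annotation deposited with the counts places replicate 1 of each group at day 42 and replicate 2 at day 38, whereas the study text names a single other day.

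Serotonin is made from tryptophan in 2 steps. A tryptophan hydroxylase adds a hydroxyl group and aromatic L-amino acid decarboxylase, encoded by DDC, removes the carboxyl group. The catecholamine route starts from tyrosine, with tyrosine hydroxylase (TH) first, the same DDC second and dopamine β-hydroxylase (DBH) turning dopamine into noradrenaline. Vesicular monoamine transporter 2, encoded by SLC18A2, loads all of these amines into vesicles, SLC6A4 and SLC6A2 return serotonin and noradrenaline from the cleft, and monoamine oxidases A and B degrade them. In the gut most serotonin comes from enterochromaffin cells of the epithelium, which use TPH1, while a small set of enteric neurons makes serotonin with TPH2. Noradrenaline reaches the gut mainly through extrinsic sympathetic fibres, and enteric neurons with TH are mostly described as dopaminergic.

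Values are given throughout for control 1, control 2, PP121 1 and PP121 2 in that order. The unit is CPM, which is the UMIs of a gene summed over the nuclei of a class, divided by all UMIs of that class in the sample and scaled to 1000000. Of the 14812 nuclei with an annotated class, enteric neurons numbered 2301, 1250, 2030 and 976, with 18951821, 11088890, 16833351 and 8755285 UMIs in sum. PP121 2 was therefore the thinnest sample for every neuronal value. The annotated nuclei of a sample held a median of 6289 to 7071 UMIs. The listed neuronal markers reached 1604 to 2236 CPM in enteric neurons and 252 to 1435 CPM in the other annotated classes, and all 8 of them were detected. The listed markers of enterochromaffin cells summed to 34.2 to 54.4 CPM in enteric neurons, with all 9 detected. CHGB (854 UMIs), TAC1 (768) and CHGA (334) led them, whereas FEV had 1 UMI and NKX2-2 2 UMIs. The 10 markers of sympathetic and chromaffin cells summed to 17.6 to 22.5 CPM, led by TH (562 UMIs), CHGA and CARTPT (98), whereas SLC6A2 had 1 UMI, HAND1 2 UMIs and GATA2 7 UMIs. The first of these lists holds TPH1 and the second holds TH, DBH and SLC6A2, which are followed here. TH alone was at 9.39 to 11.9 CPM in enteric neurons, so the sums partly restate levels given below. The part of such cells in the levels below was not tested. Between any 2 libraries, 0 to 8 annotated nuclei shared a barcode.

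The promoters of both tryptophan hydroxylase genes are shown because these paralogues behaved differently below, and that of SLC18A2 because its transcript was present in every class. Each sequence is the 250 bases before the RefSeq transcription start in GRCh38.p14, read on the strand of the gene, and capitals mark a motif found there. The motifs were the TATA box core TATAA and the box CCAAT, besides TGACGTCA. A box on the opposite strand reads as ATTGG here. All were searched on both strands and no matches overlap. TPH1 lies on the minus strand and the others on the plus strand.
TPH1 (chr11:18046270-18046519): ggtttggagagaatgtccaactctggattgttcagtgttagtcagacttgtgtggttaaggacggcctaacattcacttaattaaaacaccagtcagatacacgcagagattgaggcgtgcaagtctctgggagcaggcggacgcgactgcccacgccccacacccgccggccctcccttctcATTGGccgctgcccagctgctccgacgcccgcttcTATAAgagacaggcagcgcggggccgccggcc
TPH2 (chr12:71938595-71938844): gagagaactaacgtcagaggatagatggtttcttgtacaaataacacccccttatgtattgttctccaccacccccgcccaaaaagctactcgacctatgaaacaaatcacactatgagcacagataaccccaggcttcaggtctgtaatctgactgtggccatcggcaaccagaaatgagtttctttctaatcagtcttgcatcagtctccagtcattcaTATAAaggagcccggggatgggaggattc
SLC18A2 (chr10:117240864-117241113): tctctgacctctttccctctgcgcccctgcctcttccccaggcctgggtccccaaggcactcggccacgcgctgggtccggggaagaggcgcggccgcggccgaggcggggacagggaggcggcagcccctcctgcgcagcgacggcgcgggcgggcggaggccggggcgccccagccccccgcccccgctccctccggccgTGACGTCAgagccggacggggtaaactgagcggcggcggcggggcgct
The TPH1 window had a TATAA 32 bases and an inverted CCAAT 67 bases before the start, with a GC content of 58.8%. The TPH2 window had a TATAA 29 bases before the start and no CCAAT, with a GC content of 46.0%. The SLC18A2 window had a TGACGTCA, the letters of a cyclic AMP response element, 48 bases before the start and a GC content of 78.8%. Of 35116 promoter windows of this length, 18.9% held a TATAA, 32.0% a CCAAT and 1.65% a TGACGTCA on either strand, and the median GC content was 58.0%. Windows for 8 of the 10 genes were found. Those of SLC6A4, MAOA and MAOB held none of the motifs, DBH held a CCAAT on each strand, and of the 2 starts of DDC 1 held a CCAAT. A match is a description of letters only.

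Expression per length differed widely among the genes in enteric neurons. Levels were compared per 10 kb of the RefSeq gene span, because nuclei hold much unspliced RNA. Whether intronic reads were counted is not stated, so this scale is approximate. MAOA (span 91.8 kb) was at 15.4 and TH (7.89 kb) at 13.2 mean CPM per 10 kb. SLC18A2 followed at 3.18, SLC6A4 at 1.68 and TPH1 at 1.21 CPM per 10 kb. TPH2 stood at 0.276, MAOB at 0.180, DBH at 0.138, DDC at 0.116 and SLC6A2 at 0.003 CPM per 10 kb. On this scale the first hydroxylase of the catecholamine route was far above the decarboxylase that both routes share, and the noradrenaline transporter was all but missing. Without division by span the gap was smaller, with mean levels of 10.4 CPM for TH and 1.25 CPM for DDC. SLC18A2, at 12.2 CPM, then stood above TH.

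TPH1 is the tryptophan hydroxylase of peripheral tissues and lies on chromosome 11 (18017555 to 18046269, minus strand, GRCh38.p14). Its neuronal level was 2.90, 3.16, 4.69 and 3.20 CPM, from 55, 35, 79 and 28 UMIs. It was 0.505, 0.502, 0.570 and 0.657 CPM in progenitor 1 and 1.45, 2.22, 2.78 and 1.70 CPM in progenitor 2. Neurons, progenitor 2 and progenitor 1 formed an order whose ranges did not overlap, and within each sample neurons exceeded both progenitor classes together by 2.12 to 2.70 times.

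TPH2 is the hydroxylase of brain and enteric serotonin neurons (chromosome 12, 71938845 to 72032440, plus strand). Its level in enteric neurons was 4.22, 3.88, 1.19 and 1.03 CPM, from 80, 43, 20 and 9 UMIs. In progenitor 1 it was 4.55, 2.01, 3.70 and 0.985 CPM, from 18, 8, 26 and 3 UMIs, and in progenitor 2 it was 5.48, 3.33, 3.03 and 2.47 CPM. The ranges of the 3 classes overlapped, and only control 2 had more TPH2 in neurons than in both progenitor classes together. TPH2 was therefore not neuronal by level in these nuclei, in contrast to TPH1. The share of nuclei with a TPH2 UMI was higher in neurons than in progenitors in 3 of 4 samples with thinning and in 1 without. For TPH1 that share was higher in neurons in 4 of 4 samples either way.

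**Figure D1:**
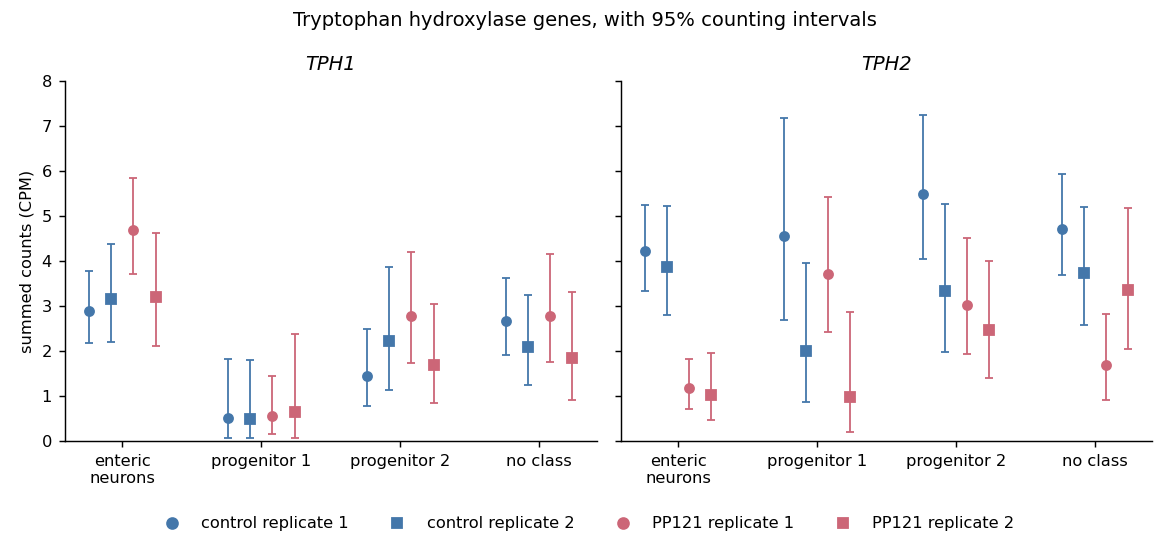
Levels of TPH1 (left) and TPH2 (right) in CPM on the vertical axis, for enteric neurons, both progenitor classes and nuclei that were given no class. Each symbol is 1 sample (blue control, red PP121, circle replicate 1, square replicate 2) and bars are exact 95% Poisson intervals, which cover counting error only. TPH1 is highest in neurons, where TPH2 stands at 4.22 and 3.88 CPM in control and at 1.19 and 1.03 CPM in PP121 samples.

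The serotonin transporter SLC6A4 (chromosome 17, 30194319 to 30235697, minus strand) was at 5.65, 7.03, 6.0 and 9.14 CPM in neurons. In progenitor 2 it was at 12.9, 10.7, 7.69 and 11.9 CPM. In the class annotated as unknown it was at 23.9, 9.01, 6.02 and 9.22 CPM, with 41 of its UMIs in control 1 and 5 to 12 in each other sample. In progenitor 1 SLC6A4 was at 8.34, 3.51, 4.13 and 5.25 CPM, below neurons in every sample but control 1. Ranges overlapped between neighbouring classes. SLC6A4 was in no sample higher in neurons than in both progenitor classes together, with 6.0 against 6.02 CPM in PP121 1. The share of nuclei with a UMI was higher in neurons than in progenitors in 2 of 4 samples with thinning and in 3 without.

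TH, the first enzyme of catecholamine synthesis (chromosome 11, 2163929 to 2171815, minus strand), was the most neuronal of the genes. Its level was 9.39, 10.9, 9.45 and 11.9 CPM in neurons, from 178, 121, 159 and 104 UMIs, against 1.77, 1.76, 2.56 and 2.30 CPM in progenitor 1 and 2.24, 1.48, 1.39 and 1.70 CPM in progenitor 2. All 4 neuronal values lay above all progenitor values, by 4.49 to 6.83 times within a sample, while the ranges of both progenitor classes overlapped. DDC (chromosome 7, 50458442 to 50565405, minus strand) followed the same order at a far lower depth. It had 30, 15, 21 and 7 UMIs in neurons (1.58, 1.35, 1.25 and 0.80 CPM), 2.54 to 6.80 times its level in progenitors.

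DBH (chromosome 9, 133636363 to 133659329, plus strand) had 5, 4, 7 and 2 UMIs in neurons. Its level there, 0.264, 0.361, 0.416 and 0.228 CPM, was below that in progenitor 2 in each sample, with 0.559, 0.740, 0.883 and 0.927 CPM. SLC6A2, the noradrenaline transporter (chromosome 16, 55655988 to 55706192, plus strand), had 1 UMI in 1 neuron of control 1 and none in the neurons of the other samples. The terminal steps of a noradrenaline neuron were therefore near the limit of detection.

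The vesicular transporter SLC18A2 (chromosome 10, 117241114 to 117279430, plus strand) was at 13.1, 13.1, 13.1 and 9.37 CPM in neurons. It was at 15.7, 12.8, 13.1 and 11.5 CPM in progenitor 1 and at 13.9, 15.2, 12.7 and 13.9 CPM in progenitor 2. All ranges overlapped, so its transcript did not mark neurons. MAOA and MAOB are neighbours on chromosome X, at 43655006 to 43746817 on the plus strand and 43766610 to 43882450 on the minus strand. MAOA was at 141, 149, 132 and 144 CPM in neurons, at 132, 141, 131 and 135 CPM in progenitor 2 and at 210, 241, 225 and 197 CPM in progenitor 1, whose range lay above the others. MAOB was at 1.53, 1.80, 2.14 and 2.86 CPM in neurons. In the unknown class it was at 1.75, 7.21, 9.86 and 27.7 CPM, of which 36 of its UMIs were in PP121 2 and 3 in control 1. That class also held LMX1A at 303 to 558 CPM, while FEV, NKX2-2 and TRPA1 were at 0 in it.

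**Figure D2:**
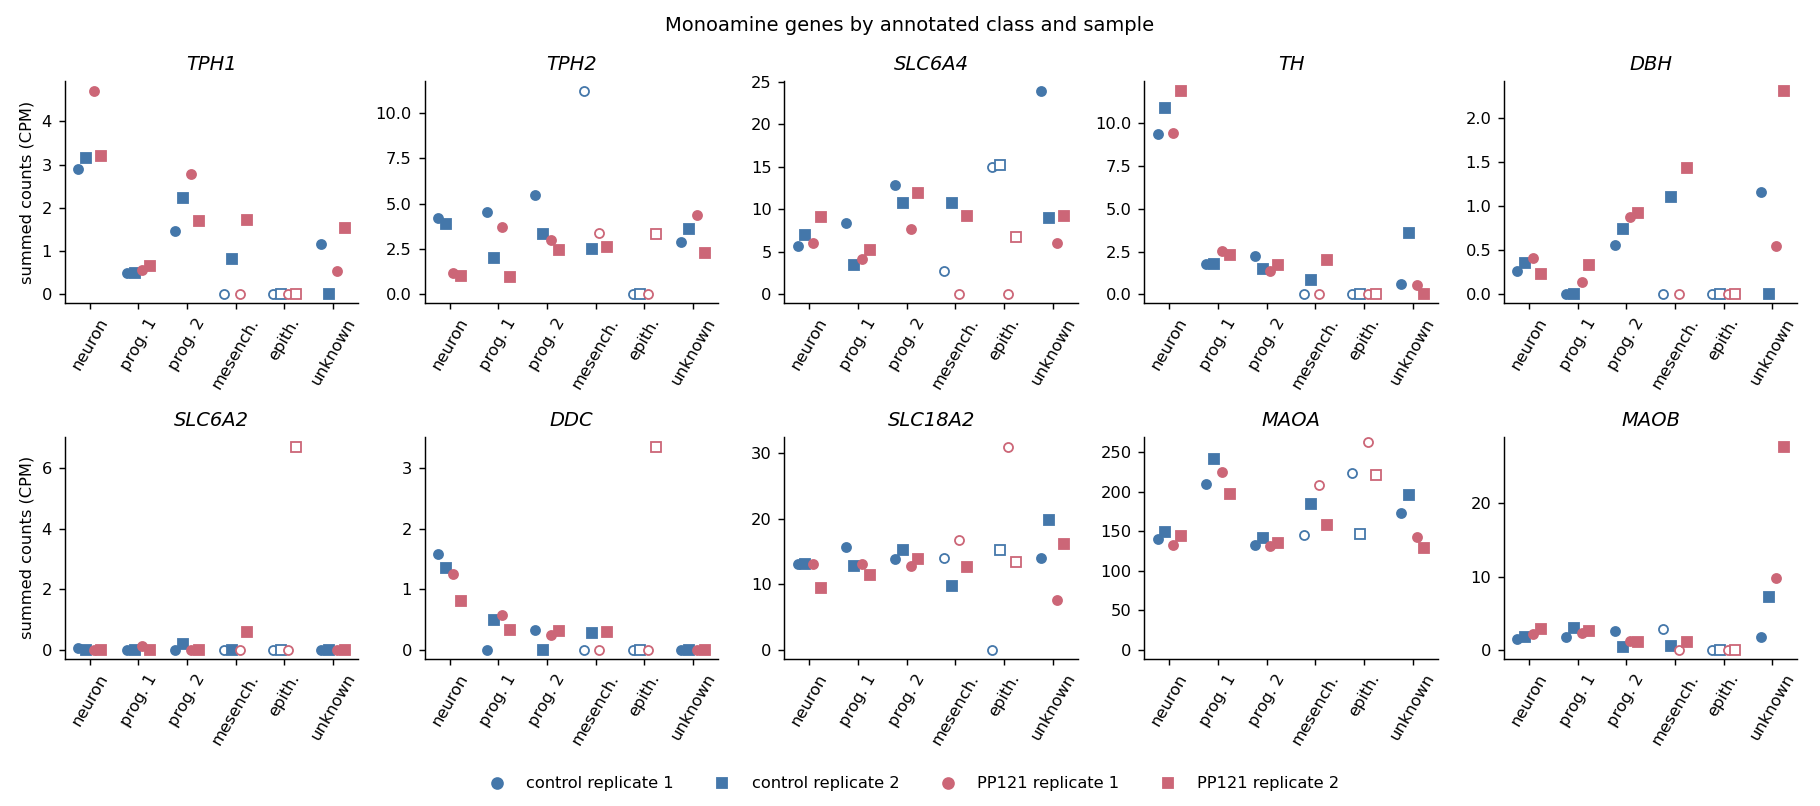
Level of each gene in CPM (vertical axes, a separate scale per panel) in the annotated classes. Each symbol is 1 sample, open symbols stand for classes with fewer than 50 nuclei in that sample, and colours and shapes are those of control and PP121 replicates. Among the classes of at least 50 nuclei in every sample, TH, DDC and TPH1 are highest in enteric neurons (TH at 9.39 to 11.9 CPM) and MAOA is highest in progenitor 1 (197 to 241 CPM), whereas the ranges of SLC18A2 overlap.

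Shares of nuclei with a UMI are described after each nucleus had been thinned to 2000 UMIs, over all samples. Nuclei were pooled, so the intervals cover counting error and not the spread between samples. Only 2 samples, control 2 and PP121 2, held at least 50 mesenchymal nuclei, so the samples do not enter both classes in like parts. TH was found in 125 of 6536 neurons (1.91%). It was found in 0 of 898 mesenchymal nuclei, a type that should lack it, which allows a share of up to 0.334%. The median depth was 7210 to 8102 UMIs in neurons and 7227 to 8401 UMIs in mesenchymal nuclei across samples. The exact binomial interval of the neuronal TH share, 1.59 to 2.27%, lay above that limit. TPH1 was found in 50 neurons (0.765%, interval 0.568 to 1.01) and 1 mesenchymal nucleus (0.111%, 0.00282 to 0.619). DDC was found in 19 neurons (0.291%, 0.175 to 0.454) and in no mesenchymal nucleus. For these the intervals overlapped. TPH2, at 35 neurons (0.535%), was set against 3 mesenchymal nuclei (0.334%). SLC6A4 was found in 83 neurons (1.27%) and 12 mesenchymal nuclei (1.34%), and SLC18A2 in 171 (2.62%) and 16 (1.78%). The shares of TPH2, SLC6A4 and SLC18A2 in neurons were thus not set apart from those in a non-neuronal type. Without thinning the shares in neurons and mesenchymal nuclei were 7.27 and 0.997% for TH, 2.41 and 0.997% for TPH1, 1.86 and 2.21% for TPH2, 4.77 and 5.65% for SLC6A4 and 8.49 and 8.42% for SLC18A2. No expression particular to neurons is read from the shares of TPH2 and SLC6A4, and the part of free RNA in them was not tested. MAOA was found in 1438 neurons (22.0%), 901 progenitor 1 nuclei (31.5%) and 247 mesenchymal nuclei (27.5%). Without thinning, the share with MAOA was higher in neurons than in progenitors in 4 of 4 samples, and with thinning in 0 of 4.

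Few neurons held more than 1 step of either route. Of 6557 neurons, TPH1 was found in 158, and 3 of these (1.90%) also held TPH2, against 1.86% of the remaining neurons. TH was found in 477 neurons, of which 4 (0.84%) also held DDC, against 1.00% of the rest. A tryptophan hydroxylase and DDC met in 1 neuron, and with SLC18A2 in none. Leaving MAOA and MAOB aside, 75.4 to 78.4% of neurons of a sample had no UMI of the 8 other genes, 1285 neurons had 1 of them, 206 had 2 or more and 13 had 3 or more. Pooled over samples, SLC6A4 was found in 13.1% of TPH2 neurons against 4.62% of others, and in 8.86% of TPH1 neurons against 4.67% of others. Neurons with both TPH2 and SLC6A4 numbered 7, 9, 0 and 0, so all were in controls. Those with both TPH1 and SLC6A4 numbered 3, 3, 5 and 3. Neurons with a UMI of TPH1, TPH2 or TH were also deeper, with medians of 10773, 9394.5 and 9616 UMIs, so these shares are not comparable at equal depth. At these depths, absence of a pair in a nucleus says little about the cell.

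The authors annotated serotonergic and catecholaminergic neurons. The exact genes of these definitions are not given in the sources used here and may include those followed here, so their levels are a description. Of the neurons annotated with each label or as other, 563, 237, 739 and 201 were serotonergic (24.6, 19.2, 39.2 and 22.0%). By the same count 415, 464, 661 and 401 were catecholaminergic (18.2, 37.6, 35.0 and 43.8%). A UMI of TPH1 or TPH2 was present in 8.70, 14.3, 6.77 and 12.4% of serotonergic neurons and in 3.02, 2.71, 1.66 and 0.84% of the others. A TH UMI was present in 19.3, 17.0, 13.9 and 15.5% of catecholaminergic neurons and in 3.90, 3.25, 2.28 and 3.89% of the others. In each sample most neurons with the label therefore held no UMI of the enzyme.

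TPH1 followed the serotonergic label closely, with 8.75, 12.2, 8.90 and 11.6 CPM in labelled and 0.726, 0.70, 1.60 and 0.68 CPM in other neurons. SLC6A4 was also higher in labelled neurons in all samples, at 11.3, 14.7, 7.58 and 13.1 CPM against 3.63, 3.99, 5.03 and 7.81 CPM. TPH2 behaved otherwise. It was at 4.17, 8.84, 1.65 and 1.94 CPM in serotonergic and at 4.29, 2.58, 0.80 and 0.68 CPM in other neurons, so in control 1 it was no higher in labelled neurons. Both PP121 samples were below both controls on either side of the label. TH was lower in serotonergic than in other neurons in every sample, at 4.77, 9.26, 6.59 and 8.25 CPM against 11.2, 11.3, 11.9 and 13.8 CPM.

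In catecholaminergic neurons TH was at 26.7, 22.7, 21.5 and 21.5 CPM, against 5.65, 3.93, 3.25 and 5.15 CPM in other neurons. DDC was at 1.47, 2.99, 2.09 and 1.15 CPM against 1.62, 0.44, 0.94 and 0.67 CPM, higher in 3 of 4 samples. DBH stayed at 1 to 4 UMIs per sample in the labelled neurons. Of the neurons annotated as labelled or other, 2.89 to 9.06% of a sample carried both labels and 34.9 to 60.1% neither.

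**Figure D3:**
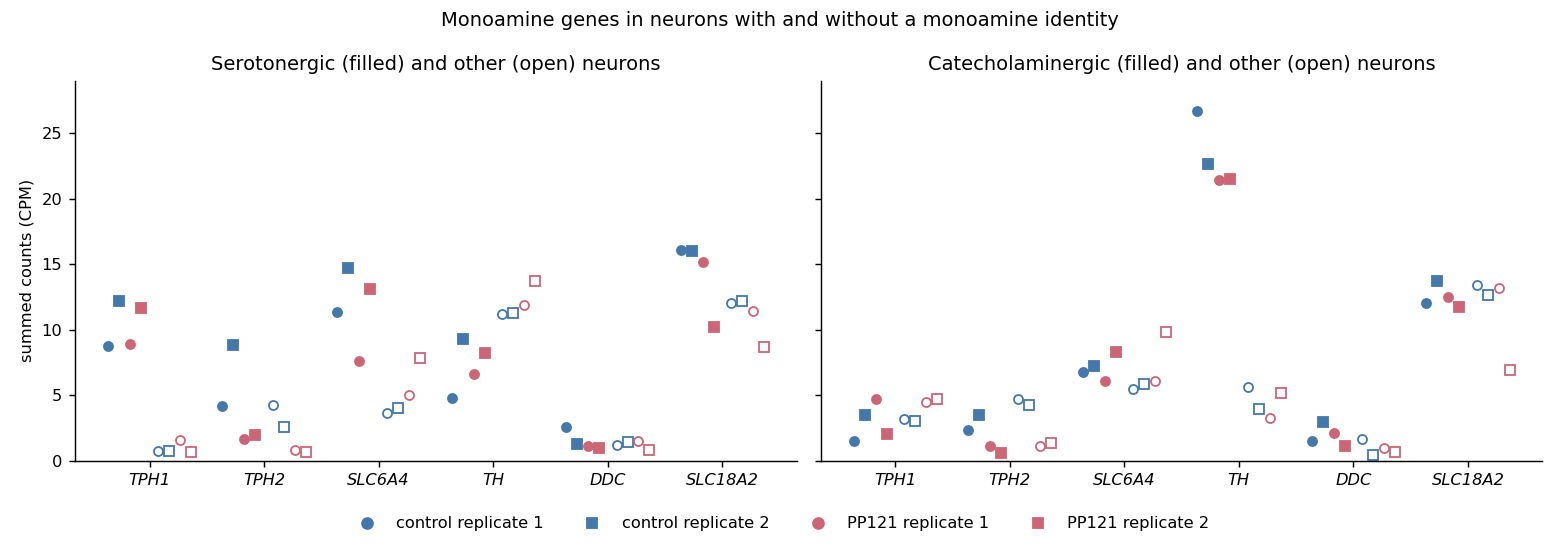
Level of 6 genes in CPM (vertical axis) in neurons with the label (filled) and without it (open), for the serotonergic label on the left and the catecholaminergic label on the right. Each symbol is 1 sample, blue for control and red for PP121, circles for replicate 1 and squares for replicate 2. TPH1 separates by the first label (8.75 to 12.2 against 0.68 to 1.60 CPM) and TH by the second (21.5 to 26.7 against 3.25 to 5.65 CPM), and TPH2 is low in both PP121 samples with and without either label.

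Neuronal subtypes were named separately in control and treated samples by the authors and were compared only within a treatment, among subtypes of at least 50 nuclei. TH was highest in EN 4 of control 1 (19.8 CPM), in EN 8 of control 2 (20.7 CPM, with EN 4 at 19.7 CPM) and in EN H of both PP121 samples (15.7 and 25.4 CPM). SLC6A4 was highest in EN 2 in both controls (13.7 and 12.3 CPM), and EN F held 37 of its UMIs in PP121 2. MAOA was highest in EN 1 in both controls (174 and 191 CPM). In both controls EN 2 and EN 6 were the 2 highest subtypes for SLC6A4 and for TPH2 alike, with TPH2 at 5.54 and 10.5 CPM in EN 2 and at 8.11 and 4.37 CPM in EN 6 of controls 1 and 2, from 7 to 17 UMIs each. DDC was led by EN 5 in control 1 (4.86 CPM) and by EN 4 in control 2 (5.48 CPM).

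The first comparison asked whether PP121 treatment moved these genes in enteric neurons. TPH2 was lower in both PP121 samples than in both controls, with means of 4.05 ± 0.24 CPM in control and 1.11 ± 0.11 CPM in PP121 neurons (SD, n = 2 each). The PP121 sample had 0.28 times the control level on day 42 and 0.27 times on day 38. The counting intervals were 3.35 to 5.25 and 2.81 to 5.22 CPM in control, and 0.73 to 1.83 and 0.47 to 1.95 CPM in PP121 neurons, so each control interval lay above both treated ones. The UMIs were spread over 62, 35, 16 and 9 neurons, with at most 4 UMIs in any of them. By edgeR's quasi-likelihood test TPH2 differed by −1.81 on the log2 scale (SE 0.33, adjusted p = 0.377), which did not pass the threshold of 0.05. With the replicate as a block it differed by −1.82 (SE 0.34) and passed, with an adjusted p = 0.000554 by the same test, and over the alternatives the adjusted p ranged from 0.000554 to 0.967. Of 21243 genes tested, 0% were called without the block by edgeR, although 2549 had an unadjusted p under 0.05 and DESeq2 called 102, and 14.8% were called with it. The levels of CPM did not overlap between the groups for 45.1% of genes tested, and for 4 of the 8 genes tested here, TPH1, TPH2, DDC and MAOB. Without the block, the adjusted p was 0.0346 when PP121 1 was left out and 0.967 when control 1 was left out. In the 2 samples with at least 50 mesenchymal nuclei, control 2 and PP121 2, the mesenchymal level of TPH2 was 2.49 and 2.59 CPM, from 9 UMIs each. These values lay between those of the control and the treated neurons, and whether free RNA took part in the difference was not tested. Fewer cells of a type and less RNA per cell cannot be told apart in such sums.

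Part of the TPH2 locus is shared. In GENCODE 29 its model runs into TRHDE, a gene on the same strand, whose neuronal UMIs were 2729, 402, 1380 and 206. TRHDE was lower on day 38 than on day 42 in both groups, and on each day it was lower in the PP121 sample, as TPH2 was. It differed between treatments by −0.72 (SE 0.68, edgeR adjusted p = 0.690) and with the replicate block by −0.70 (SE 0.11, edgeR adjusted p = 6.69e-05). How far reads of TRHDE entered the TPH2 count was not tested.

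None of the other genes passed in neurons with or without the block. TPH1 differed by 0.44 (SE 0.31, edgeR adjusted p = 0.593), and its level was 1.62 times that of control on day 42 but 1.01 times on day 38. MAOB, with 0.61 (SE 0.37), and DDC, with −0.44 (SE 0.42), had groups that did not overlap but few UMIs. SLC6A4 (0.28, SE 0.30), TH (0.10, SE 0.23), SLC18A2 (−0.17, SE 0.21) and MAOA (−0.03, SE 0.13) differed by less than 1.5 SE on the log2 scale. DBH and SLC6A2 did not pass the filter on low counts. The 8 genes tested had a median log2 difference of 0.04, next to −0.0022 over all genes.

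**Figure D4:**
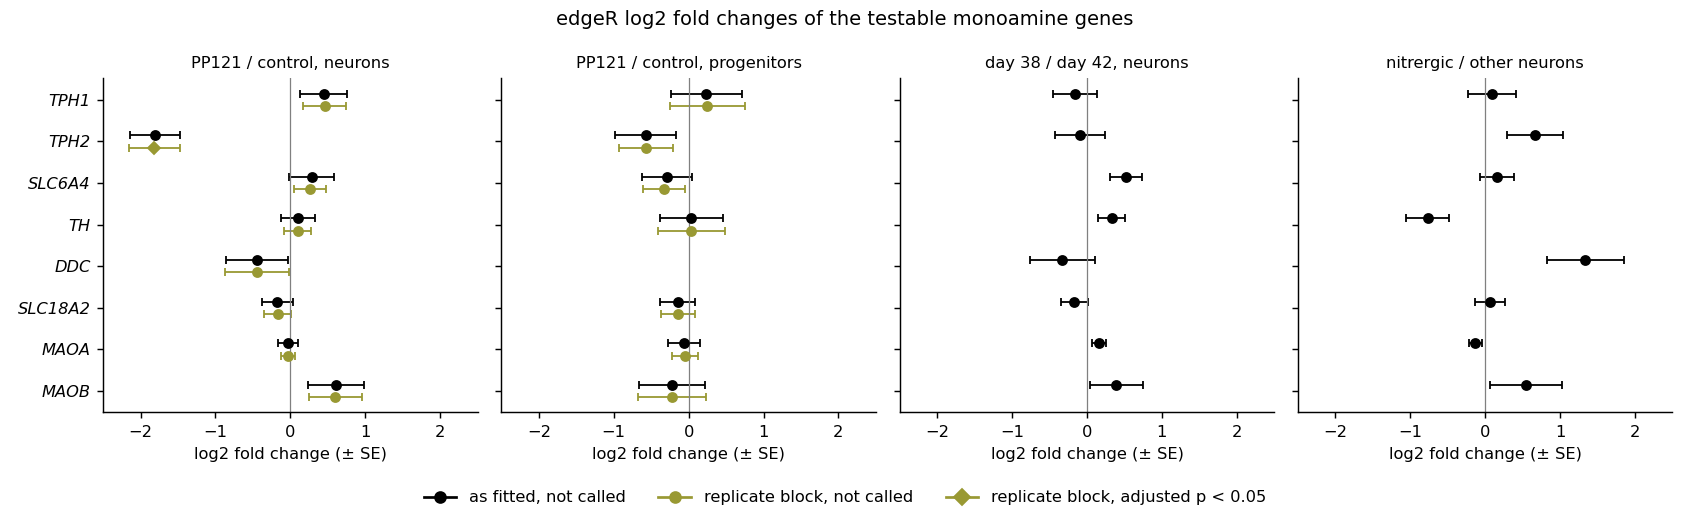
Log2 fold changes (horizontal axis) with SE bars for each gene tested, for PP121 against control in neurons and in progenitors, day 38 against day 42, and nitrergic against other neurons (black as fitted, olive with the replicate block, a diamond for an adjusted p under 0.05). TPH2 in enteric neurons lies at −1.81, past −1 in both fits, and is called with the block alone.

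The share of neurons with a UMI was compared too, at 2000 UMIs per nucleus. TPH2 was found in 0.742, 0.962, 0.148 and 0.308% of neurons. The difference of −0.624 percentage points had an exact two-sided permutation p = 0.333, which no comparison of 2 samples with 2 can go below, and a value of 0.833 after Benjamini-Hochberg adjustment over 10 genes. The groups did not overlap for 4 of the 10 genes, which were TPH2, SLC6A4 (0.333 points higher), DBH (0.0571 points higher) and DDC (0.135 points lower). Each had a permutation p = 0.333 by this test. The share of all genes that do not overlap was not computed for shares of nuclei. No result about these genes is therefore read from the count. The signs of SLC6A4, DBH and DDC turned at another thinning depth.

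In progenitors TPH2 was at 5.20, 2.77, 3.34 and 2.00 CPM. The PP121 sample had 0.64 times the control level on day 42 and 0.72 times on day 38, but the groups overlapped, and the log2 difference was −0.57 (SE 0.41, edgeR adjusted p = 0.9998, and 0.756 with the block). None of the 7 genes tested passed. edgeR called 0% of 20260 genes without the block (962 at an unadjusted p under 0.05, and 43 by DESeq2) and 1.72% with it, and CPM levels did not overlap for 28.6%, among them SLC18A2 alone of the 7 genes followed here that were tested. The difference between the effect in neurons and that in progenitors was tested directly. For TPH2 it was −1.27 (SE 0.46, unadjusted p = 0.0205, edgeR adjusted p = 0.420). It did not pass, and 0% of 21787 genes did by edgeR, with 2123 at an unadjusted p under 0.05. A fall of TPH2 particular to neurons was therefore not shown.

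Replicate 2 was set against replicate 1 in neurons, with the treatment in the fit. This compares day 38 with day 42 as well as whatever else differed between the replicates. These cannot be told apart. By edgeR 9.49% of 21243 genes were called, and none of the genes followed here was among them. SLC6A4 came nearest, higher in replicate 2 of each group by 0.52 (SE 0.22, adjusted p = 0.140). TH differed by 0.33 (adjusted p = 0.290) and MAOA by 0.16 (adjusted p = 0.310). TPH2 differed by −0.09, so on this scale its difference between replicates was small beside its difference between treatments.

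Nitrergic neurons, which make nitric oxide, were compared with the other neurons of the same sample. The label rests on NOS1 after imputation and on a nitric oxide gene score, and the definition as stated names none of the genes followed here. TH was at 5.11, 11.2, 6.15 and 1.16 CPM in nitrergic neurons, from 19, 22, 19 and 1 UMIs, and at 10.5, 10.8, 10.7 and 13.7 CPM in other neurons. It was lower in 3 of 4 samples, by −0.77 (SE 0.29, edgeR adjusted p = 0.107). DDC was at 3.23, 2.03, 3.56 and 0 CPM in nitrergic neurons, from 12, 4, 11 and 0 UMIs, and at 1.19, 1.23, 0.77 and 0.99 CPM in the others, higher in 3 of 4 samples by 1.34 (SE 0.51, edgeR adjusted p = 0.114). PP121 2, with 91 nitrergic neurons, was the exception for DDC, and without that library the adjusted p was 0.0387. TPH2 differed by 0.67 (edgeR adjusted p = 0.306). No gene of the 10 was called, against 11.7% of 19026 genes tested.

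The wider monoamine system was read from listed genes. In neurons 7 of 8 genes of cofactor synthesis, 11 of 15 other enzymes and transporters, 10 of 19 transcription factors, 6 of 17 serotonin receptors, 3 of 5 dopamine receptors and 3 of 9 adrenergic receptors could be tested. None was called for PP121 without the block. Median log2 differences were 0.04 for cofactor genes, 0.04 for other enzymes, 0.14 for transcription factors, 0.09 for serotonin, −0.29 for dopamine and −0.32 for adrenergic receptors. The smallest p of each list without the block belonged to PTS (−0.24), SULT1A3 (0.76), LMX1B (1.43), HTR2C (−0.71), DRD4 (−0.32) and ADRA1D (0.42).

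With the block, LMX1B was called among the transcription factors. LMX1B, which serotonin neurons of the brain require, was at 8.76, 31.4, 30.7 and 73.2 CPM and rose by 1.53 (SE 0.14). Control 2 was level with PP121 1, and the PP121 sample was the higher on each day. SULT1A3, which sulphates catecholamines and shares sequence with a near-identical copy, rose by 0.76 (edgeR adjusted p = 0.0306) and its count is uncertain for that reason. Of 16 alternatives, LMX1B was called in 7 and SULT1A3 in 3. ADRA1A, an adrenergic receptor, was at 87.3, 59.1, 84.1 and 17.0 CPM and fell by 0.73 (edgeR adjusted p = 0.0122). That fall rested on PP121 2, without which the log2 difference was 0.21, and ADRA1A was called in 3 of 16 alternatives (edgeR adjusted p = 1.40e-06 without PP121 1) and not with DESeq2 and the block. HTR2C had an adjusted p of 0.0519 with edgeR and was not called. In progenitors the smallest p values of the receptor lists belonged to HTR2B (−0.20), DRD2 (0.48) and ADRA1B (−0.55) without the block, and none of these passed. For the difference between neurons and progenitors, GCH1 (0.69), ISL1 (−5.54), HTR2B (0.42), DRD2 (−0.75) and ADRA1B (0.20) had the smallest p of their lists, and none of them passed. The value of ISL1 (SE 1.85) rested on 5, 24, 1 and 10 UMIs in neurons and 0, 0, 1 and 4 in progenitors.

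Of the 10 transcription factors tested between replicates, 6 were higher and 1 lower in replicate 2, against 9.49% of all genes called in either direction. ISL1, from 5, 24, 1 and 10 UMIs, was higher by 3.34 (SE 0.59) and GATA3, from 3, 12, 11 and 18 UMIs, by 2.06 (SE 0.52), while TFAP2B was lower by −0.35 (SE 0.10). HTR3B, a subunit of the serotonin-gated channel, was higher by 2.57 (SE 0.57) from 4, 12, 4 and 14 UMIs. ADRA1A differed by −1.26 (SE 0.20) and ADRA1B by −1.24 (SE 0.34). No cofactor gene, other enzyme or dopamine receptor was called, and the smallest p of the cofactor and dopamine receptor lists belonged to PCBD2 (0.09) and DRD4 (−0.45). None of the calls named here was kept with DESeq2 or with control 1 left out.

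In nitrergic neurons, where 11.7% of all genes were called, HTR2C was higher by 1.90 (SE 0.35, edgeR adjusted p = 0.00256) and DRD2 by 1.21 (SE 0.26, edgeR adjusted p = 0.00785). TFAP2B was higher by 0.68 (SE 0.19), whereas INSM1 was lower by −1.54 (SE 0.22) and ADRA1A by −0.52 (SE 0.11). HTR2C and INSM1 were called under all 7 alternatives, DRD2 under 6 of them (not without control 2), ADRA1A under 5 (not without control 1 or PP121 1) and TFAP2B under 3. No cofactor gene or other enzyme was called, with PTS (0.13) and MOXD1 (−0.72) at the smallest p.

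The genes most alike in pattern were found over 18 sums of a class in a sample, by Pearson's r of log2(CPM + 1). The points share libraries and depth, so the values are a description. TH was most like SCRT1 (r = 0.969), KIF21B and SEMA6C, and TPH1 most like DGCR9 (0.937), CCDC85A and AP003025.1. DDC was most like ACTL6B (0.922), GFOD1 and SYN3, and its r with TH was 0.84. SLC6A4 was most like RAD54L (0.912), GPR160 and AC073569.2. TPH2 was most like ETAA1 (0.816), PEA15 and AL353138.1, and SLC18A2 most like AC016590.1 (0.816), ERCC3 and ADSL. MAOA was most like AFF4 (0.954), SLC2A3 and SKP1, MAOB most like CCDC170 (0.900), SPAG6 and DNAAF1, and DBH most like NR2E3, DOCK5 and WARS2.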

How the data were processed

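Droplet snRNA-seq libraries of 4 samples were read from deposited tables of UMI counts per gene and nucleus. The deposited counts were whole numbers, not normalized, and the authors made them with kallisto and bustools per the study's methods, while the submitters' processing notes list Cell Ranger, Seurat 4.0.4 and GRCh38. Whether introns and strand were used is not stated, so antisense and overlapping genes are uncertain. Mitochondrial and ribosomal shares, deposited as percent, entered no test. Nuclei without a class were kept out of comparisons, and doublets were not called again. A deposited column of sample names differed from the titles for the controls, and titles were used. Class, subtype and transmitter labels were taken as deposited. The step that assigned them used the same nuclei, so levels by class are a description.

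Counts were summed per sample and class and scaled to CPM. Groups were compared with edgeR 4.0.16 (R 4.3.3, limma 3.58.1), by a two-sided quasi-likelihood test with TMM and filterByExpr. P values were adjusted by Benjamini-Hochberg over all genes tested, with a threshold of 0.05. The labels number 2 replicates per group. They do not say whether these are separate differentiations or whether a number is 1 differentiation split between the groups. The p-values therefore measure the spread between these samples. Replicate numbers share a dated day, and same-numbered samples deviated together (r = 0.577 over 14050 genes in neurons, 0.398 over 13979 in progenitors). The numbers therefore pair the samples, and a second fit blocks on the number (residual degrees of freedom: 1). It is given where it changes a call. The nitrergic comparison blocks on the sample and leaves NOS1 out of its counts of genes. Shares of nuclei were compared by an exact permutation test after thinning to 2000 UMIs, and shallower nuclei were dropped. Poisson intervals (95%) and the limit from a count of 0 (3 counts) cover counting error only. Fits were tested on simulated counts that had no replicate effect, with changes put only into genes of higher counts. That test therefore does not bear on a replicate effect or on genes of few UMIs.

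All 10 genes are named. Of the listed cofactor, synthesis, transcription factor and receptor genes, those with an adjusted p under 0.05 are named, at most 3 per direction, list and comparison, or otherwise the 1 with the smallest p. Some genes that this rule covers are not reported here. For likeness, the 3 genes with the highest r among those at a mean of at least 5 CPM are named, over classes of at least 50 nuclei. The genes and lists were chosen with earlier results of these data known. Alternatives were DESeq2 1.42.0, its size factors, other filters, thinning to 1000 or 4000 UMIs, removal of nuclei over 20000 UMIs, neurons kept by markers, the block, and each sample left out. DESeq2 and its size factors with the block were added after seeing the data. Coordinates and promoters come from RefSeq GRCh38.p14 and overlaps from GENCODE 29.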

Additional observations from a re-analysis of the deposited data

Results flagged for a closer look

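Nuclei without an annotated class entered no comparison of the groups. Their median depth was 666, 807, 822.5 and 708.5 UMIs for control 1, control 2, PP121 1 and PP121 2. SLC6A4 was at 7.45, 7.46, 8.80 and 9.40 CPM in them, and the lower PP121 sample, at 8.80 CPM, stood above both controls. DDC was at 0.457, 0.439, 0.844 and 1.34 CPM, from 7, 4, 7 and 8 UMIs, and the lower PP121 sample was again above both controls, at 0.844 CPM. In annotated neurons DDC had the opposite order, and the difference between these sets of nuclei was not tested. The share of all genes with such an order was not computed for nuclei without a class. Neither gene is therefore read as different between the groups there.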

How the results depend on the processing

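Counts of called genes depended strongly on the block and on single samples. For PP121 in neurons, with 0 genes called without the block, the replicate block gave 3152 and DESeq2 102. No filter gave 69, DESeq2 with the block 640, DESeq2's size factors in edgeR with the block 2209, neurons kept by markers with the block 2435, nuclei over 20000 UMIs left out with the block 2609 and at least 10 counts in every sample with the block 2769. Leaving out 1 sample gave 0 to 1402. In progenitors the replicate block gave 349, DESeq2 43, no filter 270, DESeq2 with the block 109, DESeq2's size factors with the block 338 and leaving out 1 sample 0 to 168. For the difference between the classes no filter gave 514 and leaving out 1 sample 0 to 120. For replicate 2 against 1, with 2015 called, no treatment term gave 0, DESeq2 466, and leaving out 1 sample, a fit that drops the treatment term, 2 to 271. For nitrergic neurons, with 2222 called, leaving out 1 sample gave 1242 to 2255. A fit with 1 sample in a group assumes that it varies like the other group. The cause of these differences was not tested.

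The log2 difference of TPH2 in neurons ranged from −1.90 to −1.75 over 14 alternatives, of which 5 called it. Its edgeR adjusted p ranged from 0.000554 with the replicate block to 0.967 without control 1. It was 0.0346 without PP121 1 and 0.0523 without PP121 2, and 0.0508 with no filter. DESeq2 gave it no adjusted p with or without the block (unadjusted p = 0.00688 and 0.00156), and a minimum of 10 counts in every sample left it untested. The block changed no other call among the 10 genes. In nitrergic neurons TH passed with no filter (−0.82, edgeR adjusted p = 0.00729) and DDC without PP121 2 (1.53, edgeR adjusted p = 0.0387).

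Of the shares of neurons with a UMI, 4 of 10 genes did not overlap between the groups at 2000 UMIs, against 1 at 1000 UMIs, 6 at 4000 UMIs and 5 without thinning, and 5 to 9 with 1 sample left out. Groups overlap less readily with 1 sample left out, and the share over all genes was not computed for any of these counts. At 4000 UMIs the PP121 minus control difference turned to −0.188 points for SLC6A4, −0.187 points for DBH and 0.108 points for DDC, and at 1000 UMIs to −0.0217 points for DBH.

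Signs turned when 1 sample was left out for these log2 differences, given as ranges. For PP121 in neurons they were −0.058 to 0.61 for SLC6A4, −0.087 to 0.30 for TH, −0.42 to 0.015 for SLC18A2, −0.12 to 0.055 for MAOA and −2.04 to 0.21 for ADRA1A. In progenitors they were −0.73 to 0.082 for SLC6A4, −0.075 to 0.20 for TH, −0.21 to 0.13 for MAOA, −0.43 to 0.095 for MAOB and −1.05 to 0.20 for ADRA1B. Between the classes they were −0.34 to 0.22 for SLC18A2, −0.25 to 0.29 for TH, −0.11 to 0.14 for MAOA and −0.24 to 0.39 for ADRA1B. Between replicates they were −0.40 to 0.037 for SLC18A2, −0.52 to 0.20 for TPH1 and −1.31 to 1.11 for TPH2. In nitrergic neurons they were −0.11 to 0.18 for SLC18A2 and −0.094 to 0.23 for TPH1.

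Comparisons of cholinergic, glutamatergic and GABAergic with other neurons were not run, because the genes behind those labels are not given in the sources used here. Few UMIs limited DBH, DDC, SLC6A2 and MAOB most, and TPH2 in PP121 samples.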

Other observations

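In the nuclei without a class TPH2 was at 4.70, 3.73, 1.69 and 3.36 CPM, from 72, 34, 14 and 20 UMIs. Both PP121 samples were below both controls. Unlike in annotated neurons, the counting intervals of control 2 (2.58 to 5.21 CPM) and PP121 2 (2.05 to 5.18 CPM) overlapped. The share of all genes with this order was not computed. TH was at 7.91, 6.14, 8.20 and 6.21 CPM in the nuclei without a class. MAOB was at 4.97, 4.06, 1.57 and 3.36 CPM in them, and 31 of its UMIs came from a single nucleus. No annotated neuron held more than 5 UMIs of any of these genes other than MAOA.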
